A study of Homo sapiens with 24 samples.

Results

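The genes described here belong to 3 connected programmes of protein production and stress. They are 17 genes of the unfolded protein response (chaperones, folding and degradation factors of the endoplasmic reticulum, or ER, and the regulators that control them), 10 genes of the ATF4 amino acid response, and 13 cytosolic aminoacyl-tRNA synthetases. These 40 genes were chosen as a list by their function and not by a measured value, although earlier results of these data were known when the list was made. Of the 40, 39 could be measured, out of 19775 genes named on the array. The exception was the methionyl-tRNA synthetase gene MARS1, whose probe sets carry several gene symbols. All 39 had a geometric mean signal of at least 100 over the arrays, a floor that 11332 genes reached.

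The study asked which genes respond when the BET bromodomain proteins, readers of acetylated chromatin, are blocked in prostate cancer cells. RNA from 4 established human lines was taken after 24 hours in DMSO vehicle, in 0.5 µM or in 10 µM of the BET inhibitor I-BET762 (GSK525762A). LNCaP, VCaP and PC3 were established from metastases of prostate cancer (for PC3, in bone), whereas NCI-H660 comes from a neuroendocrine tumour of the prostate. Each of the 12 groups had 2 biological replicates, 1 array each, so that 24 Affymetrix U133 Plus 2.0 arrays were analysed. An array averages all cells of a culture and was scaled by the authors to the same mean, so a lower signal can come from less RNA per cell or from fewer cells that express the gene, and these cannot be told apart.

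The labels of 2 lines are in conflict with the genes known to mark them. ERG, which is fused and abundant in VCaP, had a vehicle signal of 6984 ± 142 (SD, n = 2) on LNCaP-labelled arrays and of 18.1 ± 2.8 (SD, n = 2) on VCaP-labelled arrays. The ERG-associated genes CRISP3 and TDRD1 lay the same way. ETV1, rearranged in LNCaP, had the opposite pattern, at 43 ± 14.8 (SD, n = 2) on LNCaP-labelled arrays and at 375 ± 45.9 (SD, n = 2) on VCaP-labelled arrays. Each result below is therefore given for LNCaP-labelled or VCaP-labelled arrays, and a contrast that pools both does not depend on which is which. KLK3, the gene of prostate-specific antigen, was at 7931 and 20385 on the vehicle arrays of these 2 labels and under the floor in PC3 and NCI-H660. The PC3 vehicle arrays carried AXL and CD44 at 6690 and 6249, and those of NCI-H660 the neuroendocrine genes INSM1, CHGA and ENO2 at 7711, 2568 and 10178, as means of 2 arrays, but SYP at only 195. Of 4 leukocyte and 4 fibroblast markers, PTPRC, LYZ, COL3A1, DCN and LUM were under 100 on the vehicle arrays of all lines, and CD3E, CD79A and COL1A1 reached at most 174, 375 and 653. Some markers moved with treatment. At 10 µM on LNCaP-labelled arrays COL1A1 rose by 1.70 on the log2 scale, from a mean of 58.7 to 191.3, and the luminal markers KLK3 and TMPRSS2 changed by -5.13 and -1.28. At 10 µM on VCaP-labelled arrays KLK2 and KLK3 changed by -3.77 and -2.10. The part of these shifts in the results below was not tested.

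When unfolded proteins gather in the ER, the sensors IRE1 (gene ERN1), ATF6 and PERK start the unfolded protein response, in which XBP1 and ATF6 switch on chaperones such as BiP (HSPA5) and the machinery that removes misfolded proteins. PERK and the amino acid sensor GCN2 both act through translation factor eIF2 on the transcription factor ATF4, which drives genes for amino acid synthesis, several tRNA synthetases, and the pair CHOP (DDIT3) and TRIB3. Aminoacyl-tRNA synthetases join each amino acid to its tRNA and so feed the ribosome. Secretory prostate epithelium carries a heavy load of ER proteins, and these programmes are widely studied in prostate cancer.

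The promoters were searched for known sequence elements. The genes were chosen for their known part in these responses, so matches may not be independent of that choice. The shares of all promoters are given as a description, and no test was made. RefSeq promoters (GRCh38.p14) were found for 36 of the 40 genes, all but LARS1, PSPH, VARS1 and YARS1, and the 250 bases before the start site were searched on both strands. The ER stress element, CCAAT and CCACG with 9 bases between them, was present before CALR, HSP90B1, HSPA5, PDIA6 and XBP1, and before 26 of 35116 RefSeq promoters (0.074%). Its second form, ATTGG and CCACG with 1 base between them, was present before HERPUD1, HYOU1 and SDF2L1, against 0.0513% of all promoters. The core of the amino acid response element, TGATG and AA with 1 base between them, stood before AARS1, ASNS, CHAC1, GARS1, HERPUD1 and IARS1, against 3.14% of all promoters. The E-box CACGTG was found before ATF4, DNAJB9, HERPUD1, HSP90B1 and IARS1, against 6.34% of all promoters. No 2 different elements overlapped.

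The promoters of 4 genes are printed because genes with the same kind of element moved in opposite directions. HSPA5 and SDF2L1 hold the first and the second ER stress element, and ASNS and CHAC1 hold the amino acid response core. The sequences run 5′ to 3′ on the gene's strand, and the capitals mark the matched element with its free bases. The HSPA5 promoter is at chr9:125241344-125241593 on the minus strand and SDF2L1 at chr22:21642052-21642301 on the plus strand. The ASNS promoter is at chr7:97872409-97872658 on the minus strand and CHAC1 at chr15:40953221-40953470 on the plus strand. The SDF2L1 and CHAC1 elements lie on the strand opposite to the gene. A match describes the letters only.
HSPA5: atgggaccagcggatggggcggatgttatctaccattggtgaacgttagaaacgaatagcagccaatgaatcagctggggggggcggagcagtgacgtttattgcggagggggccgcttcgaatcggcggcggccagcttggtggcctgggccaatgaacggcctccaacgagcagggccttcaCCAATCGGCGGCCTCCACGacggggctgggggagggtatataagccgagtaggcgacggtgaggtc
SDF2L1: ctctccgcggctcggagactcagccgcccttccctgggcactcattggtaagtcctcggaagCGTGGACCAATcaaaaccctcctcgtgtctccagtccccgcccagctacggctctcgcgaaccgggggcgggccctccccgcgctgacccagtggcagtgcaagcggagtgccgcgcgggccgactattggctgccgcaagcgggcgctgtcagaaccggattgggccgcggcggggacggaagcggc
ASNS: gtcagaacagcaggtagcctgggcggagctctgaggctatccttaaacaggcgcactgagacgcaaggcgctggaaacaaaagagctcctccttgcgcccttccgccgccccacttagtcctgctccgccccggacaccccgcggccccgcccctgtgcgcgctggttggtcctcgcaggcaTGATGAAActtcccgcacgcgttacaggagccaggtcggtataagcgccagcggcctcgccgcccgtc
CHAC1: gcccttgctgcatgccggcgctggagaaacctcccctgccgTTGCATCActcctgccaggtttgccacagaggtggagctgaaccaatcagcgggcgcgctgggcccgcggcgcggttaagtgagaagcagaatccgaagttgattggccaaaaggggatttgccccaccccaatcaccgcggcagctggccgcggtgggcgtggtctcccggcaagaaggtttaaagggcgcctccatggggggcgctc

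The clearest changes were on LNCaP-labelled arrays, where ER chaperone genes rose and tRNA synthetase genes fell. A gene is said here to have risen or fallen only where its log2 change from vehicle had a limma adjusted p (Benjamini-Hochberg over all probe sets) under 0.1 and the mean of either group reached a signal of 100, and values of other genes are given without such a verb. On LNCaP-labelled arrays, 13 of the 39 genes rose and 11 fell at 0.5 µM, against 17.8% and 16.6% of all genes at or above the floor. At 10 µM, 13 rose and 15 fell there, against 27.5% and 26.2% of all genes. On VCaP-labelled arrays, 4 rose and 14 fell at 0.5 µM (11.8% and 13.1% of all genes), and 5 rose and 18 fell at 10 µM (20.2% and 21.5%). In PC3, 2 rose and 6 fell at 0.5 µM (6.96% and 4.35% of all genes), and 7 rose and 10 fell at 10 µM (16.8% and 14.1%). NCI-H660 had 0 risen and 1 fallen at 0.5 µM by limma (4.66% and 3.32% of all genes; without adjustment, 1 up and 4 down at a p under 0.05), and 5 risen and 10 fallen at 10 µM (18% and 16.7%). At 10 µM the fallen share stood furthest above that of all genes on VCaP-labelled arrays, and the risen share lay under that of all genes in NCI-H660 and on VCaP-labelled arrays. Comparisons of the same line at 0.5 and 10 µM share their vehicle arrays. Single arrays weighed on some counts. On VCaP-labelled arrays at 0.5 µM, 9 to 11 of 39 genes passed without any 1 of its 4 arrays. PC3 had 4 or 5 at 0.5 µM without either vehicle replicate or the first treated one, and 11 at 10 µM without the first vehicle replicate. NCI-H660 had 6 to 9 at 10 µM without any 1 of the 4 arrays compared.

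The direction of these counts depends in part on how arrays are scaled. Centring each array on its median signal moved the median change of all probe sets by -0.183 and -0.129 (log2) at 0.5 and 10 µM on LNCaP-labelled arrays, by -0.133 at 10 µM on VCaP-labelled arrays and by 0.179 at 10 µM in NCI-H660, and by less than 0.1 elsewhere. With that scaling the split of risen against fallen genes became 10 to 13 on LNCaP-labelled arrays at 0.5 µM, 1 to 11 and 2 to 18 on VCaP-labelled arrays at 0.5 and 10 µM, and 7 to 4 in NCI-H660 at 10 µM. The first and the last of these turn the direction, while quantile normalization gave 14 to 11 and 2 to 10 there. The shares of all genes are given for the deposited scaling only, so rescaled counts, here and below, cannot be set against them.

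A change over 2-fold, the size cut-off of the study's own analysis, was less common. On LNCaP-labelled arrays, 4 genes rose and 3 fell by more than 2-fold at 0.5 µM (3.64% and 4.02% of all genes), and 4 rose and 6 fell at 10 µM (10.1% and 9.96%). On VCaP-labelled arrays the numbers were 0 and 1 at 0.5 µM (1.16% and 3.96%) and 1 and 5 at 10 µM (4.69% and 7.73%). PC3 had 1 gene risen and 1 fallen by more than 2-fold at 10 µM (3.54% and 2.84%), ASNS and TRIB3. NCI-H660 had 0 risen and 1 fallen at 10 µM (3.27% and 5.08%), the latter being TRIB3. At 0.5 µM limma gave 0 such genes in each direction in PC3 (0.98% and 0.75% of all genes) and in NCI-H660 (0.574% and 0.812%), where CREB3L4 was the 1 gene that fell by any amount (adjusted p = 0.00542).

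Across lines, 4 genes fell in all 4 lines at 10 µM, which 4.06% of all genes did: CREB3L4, TRIB3, CEBPB and VARS1. ASNS alone rose in all 4 lines, as 4.54% of all genes did. Another 4 genes, HERPUD1, EDEM1, AARS1 and EPRS1, passed in none of the 8 comparisons with vehicle, and 9 genes passed in both directions in different lines or concentrations. No share of all genes is given for these last counts, so they cannot be called unusual or usual.

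Each gene was read from 1 probe set, and other probe sets of the same gene did not always give the same call. The 39 genes passed 134 times in the 8 comparisons with vehicle, and in 73 of these the gene had another probe set at or above the floor. In 30 of the 73, every other such probe set passed in the same direction, in 12 some did and in 31 none did. In none of the 73 did another probe set pass in the opposite direction, but in 10 of the 73 one had the opposite sign. Comparisons in which the chosen probe set did not pass are not in these counts. The calls with no second passing probe set were in HSP90B1, DNAJB9, ERN1, ATF6, CREB3L2, SEL1L, DNAJC3, PSPH, SESN2, SARS1, TARS1, VARS1, WARS1 and YARS1.

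**Figure D1:**
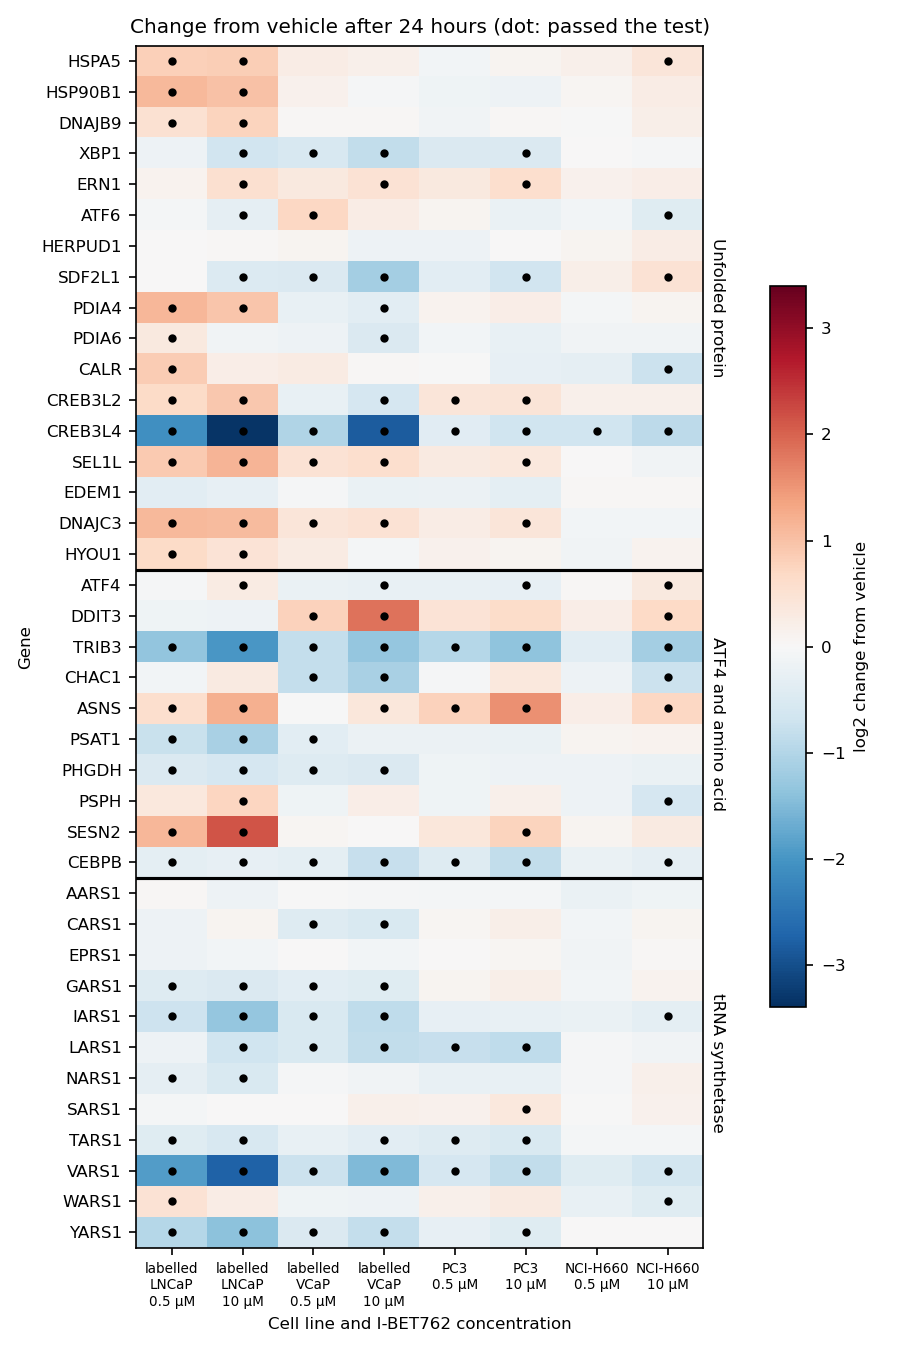
Colours give the log2 change from vehicle of the 39 measured genes (rows, in 3 functional groups) for each line and I-BET762 concentration (columns), and a dot marks a change with an adjusted p under 0.1 where either group's mean reached 100. Red (higher) is concentrated among the unfolded protein genes on LNCaP-labelled arrays, and blue (lower) among the tRNA synthetases and the genes CREB3L4 and TRIB3.

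Among the 17 unfolded protein genes, 10 rose and 1 fell at 0.5 µM on LNCaP-labelled arrays, and 9 rose and 4 fell at 10 µM. The median log2 change was 0.53 and 0.46, against medians over all genes of 0.04 and 0.05. On VCaP-labelled arrays 3 rose and 3 fell at 0.5 µM and 3 rose and 6 fell at 10 µM, with medians of 0.08 and -0.07. PC3 had 1 risen and 1 fallen, then 4 risen and 3 fallen. NCI-H660 had 0 risen and 1 fallen, then 2 risen and 3 fallen, which became 4 and 2 with median centring and 1 and 3 with quantile normalization. Median centring also gave 8 risen and 2 fallen at 0.5 µM and 7 and 5 at 10 µM on LNCaP-labelled arrays, with medians of 0.34 at both, and 1 and 2, then 1 and 6 on VCaP-labelled arrays. The shares of all genes given above apply to each of these groups with the deposited scaling, not to the rescaled counts.

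HSPA5 encodes BiP, the main Hsp70 chaperone of the ER and the gene most often read as a sign of the response. HSPA5 signal on LNCaP-labelled arrays was 13554 and 12602 with vehicle, 22465 and 23778 at 0.5 µM and 24113 and 22622 at 10 µM. All treated arrays lay above both vehicle arrays, with log2 changes of 0.82 ± 0.10 and 0.84 ± 0.10 (SE; limma adjusted p = 0.000129 and 3.03e-05). HSPA5 on VCaP-labelled arrays was 13649 and 13098 with vehicle, 15828 and 15789 at 0.5 µM and 15319 and 15004 at 10 µM. The VCaP-labelled treated arrays were also above vehicle, but by 0.24 ± 0.10 and 0.18 ± 0.10 log2 units, which did not pass (adjusted p = 0.186 and 0.284). In PC3 HSPA5 stood at 13120 and 13688 with vehicle, 11935 and 13346 at 0.5 µM and 14350.4 and 14183 at 10 µM, with overlap at 0.5 µM. NCI-H660 gave 12442 and 11835 with vehicle, 12948 and 14282 at 0.5 µM and 16213 and 15919 at 10 µM, and the rise of 0.40 ± 0.10 at 10 µM passed (adjusted p = 0.0162). It missed the threshold without the second vehicle replicate (0.107) and with quantile normalization (0.284). A dimmer second HSPA5 probe set, with a geometric mean signal of 666, passed on VCaP-labelled arrays too, with changes of 0.83 and 0.48 (adjusted p = 0.00118 and 0.0204).

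HSP90B1 (GRP94) and PDIA4, an ER Hsp90 chaperone and a protein disulfide isomerase, followed HSPA5 on LNCaP-labelled arrays. HSP90B1 signal there was 7585 and 8106 with vehicle, 16484 and 17038 at 0.5 µM and 14983 and 16192 at 10 µM, changes of 1.10 ± 0.11 and 0.99 ± 0.11 (adjusted p = 1.91e-05 and 1.08e-05). PDIA4 signal there was 4749 and 5302 with vehicle, 10722 and 11288 at 0.5 µM and 9399.6 and 9816 at 10 µM, changes of 1.13 ± 0.11 and 0.94 ± 0.11 (adjusted p = 1.61e-05 and 1.94e-05). For both genes the treated arrays lay far above the vehicle arrays. The other HSP90B1 probe set, with a geometric mean signal of 1340, did not pass there, with changes of 0.51 and 0.28 (adjusted p = 0.625 and 0.777). Both HSP90B1 probe sets are of a design that can match several genes, and the gene had no other. In the other lines HSP90B1 passed at neither concentration, with changes between -0.18 and 0.26. PDIA4 on VCaP-labelled arrays was 5606 and 5252 with vehicle, 4482 and 4664 at 0.5 µM and 4387 and 4035 at 10 µM. The fall of -0.37 ± 0.11 at 10 µM passed (adjusted p = 0.0292), but not without the first vehicle or the second treated replicate (at most 0.188). PDIA4 was 4428 and 4641 with vehicle, 4767 and 5041 at 0.5 µM and 5549 and 5033 at 10 µM in PC3. In NCI-H660 it was 1716 and 1908 with vehicle, 1707 and 1773 at 0.5 µM and 1971 and 1904 at 10 µM, and it passed in neither of these lines.

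Factors of ER-associated degradation and co-chaperones behaved partly alike. SEL1L, the scaffold of the HRD1 ubiquitin ligase that clears misfolded ER proteins, was at 1093 and 1260.5 with vehicle, 2204 and 2186 at 0.5 µM and 2629 and 2589.5 at 10 µM on LNCaP-labelled arrays. Its changes there were 0.90 ± 0.11 and 1.15 ± 0.11 (adjusted p = 0.000158 and 5.18e-06), with no overlap of treated and vehicle arrays. On VCaP-labelled arrays SEL1L was 1375 and 1660.3 with vehicle, 2108 and 2139 at 0.5 µM and 2202 and 2274 at 10 µM, and rose by 0.49 ± 0.11 and 0.57 ± 0.11 (adjusted p = 0.0157 and 0.00295). Without the first vehicle replicate the change at 0.5 µM had an adjusted p of 0.167. PC3 gave 2852 and 2889 with vehicle, 3505 and 3595 at 0.5 µM and 3728 and 3579 at 10 µM. The PC3 rise of 0.35 ± 0.11 at 10 µM passed (adjusted p = 0.0688), though not without any 1 of the 4 vehicle and 10 µM arrays (at most 0.221). NCI-H660 stood at 2615 and 2598 with vehicle, 2469 and 2747 at 0.5 µM and 2477 and 2313 at 10 µM, and its groups at 0.5 µM overlapped. DNAJC3, an Hsp40 co-chaperone that restrains PERK, rose by 1.11 ± 0.14 and 1.07 ± 0.14 on LNCaP-labelled arrays, by 0.41 ± 0.14 and 0.50 ± 0.14 on VCaP-labelled arrays and by 0.41 ± 0.14 at 10 µM in PC3. Its 3 other probe sets all passed on LNCaP-labelled arrays. On VCaP-labelled arrays 0 of the 3 passed at 0.5 µM and 1 at 10 µM. In PC3 at 10 µM they gave 0.01, 0.23 and -0.06 (adjusted p = 0.993, 0.83 and 0.869).

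Other chaperone genes of the group rose mostly on LNCaP-labelled arrays. HYOU1, an ER nucleotide exchange factor for BiP, rose there by 0.65 ± 0.18 at 0.5 µM and 0.46 ± 0.18 at 10 µM. DNAJB9, an Hsp40 partner of BiP, rose by 0.53 ± 0.10 and 0.75 ± 0.10. CALR, the lectin chaperone calreticulin, rose by 0.85 ± 0.21 at 0.5 µM and stood at 0.23 ± 0.21 at 10 µM, which did not pass. In NCI-H660 CALR fell by 0.74 ± 0.21 on the log2 scale at 10 µM. Of 2 brighter CALR probe sets, which the rule passed over because their design can match several genes, 1 passed in each of these comparisons, with 0.50 (adjusted p = 0.0125) at 0.5 µM on LNCaP-labelled arrays and -0.33 (adjusted p = 0.0913) in NCI-H660, and the other gave 0.24 (adjusted p = 0.17) and -0.23 (adjusted p = 0.2). PDIA6, a disulfide isomerase, rose by 0.33 ± 0.10 at 0.5 µM on LNCaP-labelled arrays and fell by 0.49 ± 0.10 on the log2 scale at 10 µM on VCaP-labelled arrays. Of the 5 genes with the first ER stress element printed above for HSPA5, XBP1 was the exception to the rise at 0.5 µM on LNCaP-labelled arrays, while CALR, HSP90B1, HSPA5 and PDIA6 rose as read from the chosen probe set. At 10 µM only HSPA5 and HSP90B1 of the 5 rose there, PDIA6 stood at -0.13 without passing, and XBP1 fell. PDIA4, SEL1L, DNAJC3, CREB3L2, HYOU1 and DNAJB9, without a match to this element, also rose at 0.5 µM on these arrays.

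XBP1, whose spliced messenger RNA encodes the main activator of ER chaperone and degradation genes, did not follow the chaperones upward. XBP1 signal on LNCaP-labelled arrays was 3681 and 3181 with vehicle, 3049 and 2979 at 0.5 µM and 2128 and 2263 at 10 µM. It fell at 10 µM, by 0.64 ± 0.18 on the log2 scale (adjusted p = 0.0172; 0.124 without the first vehicle replicate), and its change at 0.5 µM was -0.18 ± 0.18 (adjusted p = 0.616). On VCaP-labelled arrays the values were 3614 and 3539 with vehicle, 2433 and 2492 at 0.5 µM and 1970.1 and 2054 at 10 µM, changes of -0.54 ± 0.18 and -0.83 ± 0.18 (adjusted p = 0.0884 and 0.00496). PC3 gave 1024 and 1242 with vehicle, 671 and 943 at 0.5 µM and 681 and 926 at 10 µM, and NCI-H660 gave 1823 and 2075 with vehicle, 1953 and 1976 at 0.5 µM and 2049 and 1737 at 10 µM. Treated arrays lay below vehicle in the first 3 lines and overlapped with it in NCI-H660. The change of -0.50 ± 0.18 at 10 µM in PC3 (adjusted p = 0.0961) lost its call when any of 21 arrays was left out, and the 0.5 µM change on VCaP-labelled arrays when any of 14 was. Averaging all XBP1 probe sets in place of the brightest ended the calls on LNCaP-labelled arrays (-0.09, adjusted p = 0.922) and VCaP-labelled arrays (-0.92 at 10 µM, adjusted p = 0.202) and turned the PC3 change at 10 µM to 0.09 (adjusted p = 0.94). The only other XBP1 probe set had a geometric mean signal of 33.4, under the floor in every comparison. The array's signal does not separate spliced from unspliced XBP1.

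SDF2L1, an ER protein that works with the BiP cycle and holds the second ER stress element printed above, fell at 10 µM on LNCaP-labelled arrays, where HSPA5 rose. SDF2L1 signal on LNCaP-labelled arrays was 2685 and 2782 with vehicle, 2673 and 2779 at 0.5 µM and 2043 and 1913 at 10 µM. It fell by 0.47 ± 0.11 on the log2 scale at 10 µM (adjusted p = 0.00506), and its arrays overlapped at 0.5 µM. On VCaP-labelled arrays it was 3904 and 3736 with vehicle, 2775 and 2689 at 0.5 µM and 1794 and 1621 at 10 µM, changes of -0.48 ± 0.11 and -1.16 ± 0.11 (adjusted p = 0.0124 and 5.89e-06). PC3 gave 2713 and 2578 with vehicle, 2214 and 1944 at 0.5 µM and 1674 and 1699 at 10 µM, a change of -0.65 ± 0.11 at 10 µM (adjusted p = 0.00147). NCI-H660 was the only line in which SDF2L1 rose, from 834 and 778 over 979 and 869 to 1127 and 1134, by 0.49 ± 0.11 at 10 µM (adjusted p = 0.00781). The difference between the changes in PC3 and NCI-H660 was -1.14 ± 0.15 (adjusted p = 0.00163).

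CREB3L4, an ER-anchored transcription factor known as AIbZIP that is abundant in prostate epithelium, fell in all 8 comparisons, and more than any other of the 39 genes at 10 µM on LNCaP- and VCaP-labelled arrays. CREB3L4 signal on LNCaP-labelled arrays was 3679 and 3620.2 with vehicle, 855 and 861 at 0.5 µM and 344 and 385 at 10 µM. The changes were -2.09 ± 0.11 and -3.33 ± 0.11 (adjusted p = 3.67e-07 and 1.71e-09), the second being 10.0-fold. VCaP-labelled arrays gave 4242 and 4032 with vehicle, 1967 and 2085 at 0.5 µM and 599.6 and 565 at 10 µM, changes of -1.03 ± 0.11 and -2.83 ± 0.11 (adjusted p = 4.76e-05 and 4.14e-09). PC3 was low already with vehicle, at 434 and 426, and reached 353 and 309.6 at 0.5 µM and 249 and 287 at 10 µM. NCI-H660 went from 1253 and 1211 over 783 and 739 to 679 and 663. No treated array overlapped with vehicle in any line. The PC3 change of -0.38 ± 0.11 at 0.5 µM (adjusted p = 0.0856) lost its call without any of 20 arrays. The fall at 10 µM was larger in the pooled LNCaP- and VCaP-labelled lines than in PC3 and NCI-H660, with a difference of -2.30 ± 0.11 on the log2 scale (adjusted p = 7.45e-08).

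The related factor CREB3L2, also anchored in the ER membrane, moved differently from CREB3L4. CREB3L2 rose by 0.64 ± 0.12 and 0.91 ± 0.12 on LNCaP-labelled arrays and by 0.41 ± 0.12 and 0.44 ± 0.12 in PC3, and fell by 0.57 ± 0.12 on the log2 scale at 10 µM on VCaP-labelled arrays. Among the sensors, ERN1, which encodes IRE1, rose at 10 µM by 0.54 ± 0.12 on LNCaP-labelled arrays, 0.48 ± 0.12 on VCaP-labelled arrays and 0.58 ± 0.12 in PC3. Neither of the other ERN1 probe sets, with geometric mean signals of 284 and 115, passed in any line, and both were below vehicle at 10 µM on VCaP-labelled arrays, at -0.38 and -0.21. ATF6 rose by 0.70 ± 0.11 at 0.5 µM on VCaP-labelled arrays, and at 10 µM it fell by 0.30 ± 0.11 on the log2 scale on LNCaP-labelled arrays and by 0.41 ± 0.11 in NCI-H660. HERPUD1, an ER membrane protein of the degradation pathway, and EDEM1, which targets misfolded glycoproteins, passed nowhere, with changes between -0.36 and 0.25.

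**Figure D2:**
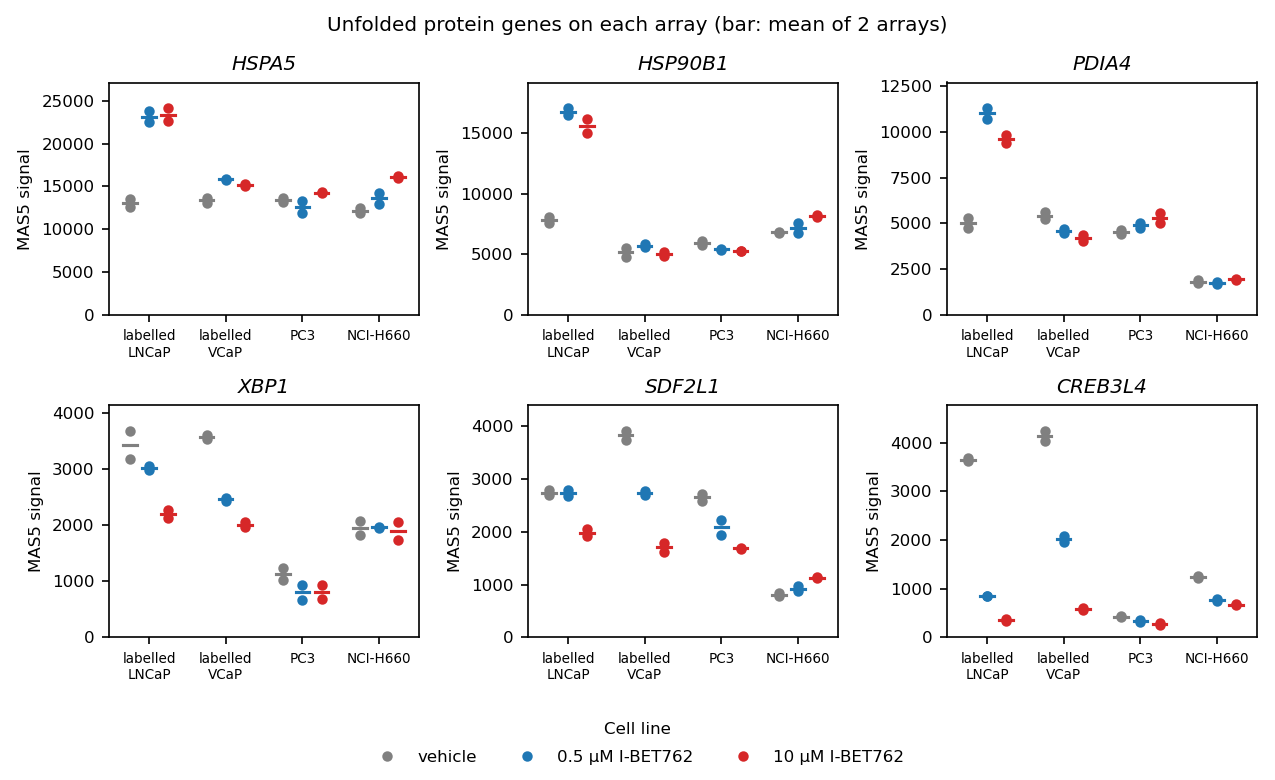
Each panel plots the MAS5 signal (linear axis from 0) of one unfolded protein gene on all 24 arrays by cell line, with dots for single arrays, bars for the mean of 2 arrays, and colours for vehicle, 0.5 µM and 10 µM I-BET762. HSPA5, HSP90B1 and PDIA4 stand apart on treated LNCaP-labelled arrays, whereas CREB3L4 steps down with concentration on LNCaP- and VCaP-labelled arrays.

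The ATF4 group was split in every line. On LNCaP-labelled arrays 2 of the 10 genes rose and 4 fell at 0.5 µM, and 4 rose and 4 fell at 10 µM. On VCaP-labelled arrays 1 rose and 5 fell, then 2 rose and 5 fell. PC3 had 1 risen and 2 fallen, then 2 risen and 3 fallen. NCI-H660 had 0 risen and 0 fallen at 0.5 µM by limma, then 3 risen and 4 fallen at 10 µM, which became 3 and 1 with median centring and 1 and 4 with quantile normalization. Median centring gave 0 and 4, then 1 and 5 on VCaP-labelled arrays, and quantile normalization 3 and 3 at 0.5 µM on LNCaP-labelled arrays. The medians lay between -0.28 on VCaP-labelled arrays at 0.5 µM and 0.06 on LNCaP-labelled arrays at 10 µM.

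ATF4 itself changed little. ATF4 signal on LNCaP-labelled arrays was 8882 and 8593 with vehicle, 8301 and 8579 at 0.5 µM and 10835 and 10599.7 at 10 µM, and on VCaP-labelled arrays 10803 and 10779 with vehicle, 8772 and 9650.5 at 0.5 µM and 9219 and 8753 at 10 µM. The change at 10 µM was 0.29 ± 0.10 on the former and -0.26 ± 0.10 on the latter (adjusted p = 0.0388 and 0.0811). PC3 gave 7174 and 7442 with vehicle, 6452 and 5858 at 0.5 µM and 5865 and 6095 at 10 µM, and NCI-H660 gave 9779.8 and 9578 with vehicle, 9612 and 10182 at 0.5 µM and 12368 and 12080 at 10 µM. The changes at 10 µM were -0.29 ± 0.10 in PC3 and 0.34 ± 0.10 in NCI-H660 (adjusted p = 0.0747 and 0.034). So at 10 µM ATF4 rose on LNCaP-labelled arrays and in NCI-H660 and fell in the other 2 lines, each time by 0.34 or less on the log2 scale. Of 24 arrays, leaving out any of 3, 6, 4 and 4 ended the call on LNCaP-labelled arrays, VCaP-labelled arrays, in PC3 and in NCI-H660, and median centring ended it on the first and the third of these (adjusted p = 0.419 and 0.253), and quantile normalization on the last (0.22, adjusted p = 0.158). ATF4 is known to be controlled mainly at translation, which these arrays do not read.

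DDIT3 encodes CHOP, a factor associated with cell death in prolonged ER stress. DDIT3 signal on VCaP-labelled arrays was 325 and 524 with vehicle, 771 and 651 at 0.5 µM and 1488 and 1468 at 10 µM. It rose there by 0.78 ± 0.23 and 1.84 ± 0.23 (adjusted p = 0.0523 and 7.67e-05), the first ranging from 0.44 to 1.13 when single arrays were left out and losing its call without 3 of them. On LNCaP-labelled arrays it was 626 and 616 with vehicle, 586 and 542 at 0.5 µM and 586 and 513 at 10 µM, all treated arrays below vehicle by an amount that did not pass (-0.18 ± 0.23 at 10 µM, adjusted p = 0.673). PC3 gave 279 and 471 with vehicle, 503 and 500.4 at 0.5 µM and 581 and 531 at 10 µM, and NCI-H660 the far higher 5402 and 5269.8 with vehicle, 6461 and 6099.9 at 0.5 µM and 8971 and 8078 at 10 µM. Its rise of 0.67 ± 0.23 at 10 µM in NCI-H660 (adjusted p = 0.0733) was lost without any 1 of the 4 arrays compared. The response at 10 µM differed between LNCaP- and VCaP-labelled arrays by -2.02 ± 0.32 (adjusted p = 0.00179).

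TRIB3, a pseudokinase induced by ATF4 and CHOP, fell in all 4 lines at 10 µM. TRIB3 signal on LNCaP-labelled arrays was 3437 and 3518 with vehicle, 1389 and 1338 at 0.5 µM and 832 and 931 at 10 µM. On VCaP-labelled arrays it was 3480.0 and 3533 with vehicle, 1997 and 1995 at 0.5 µM and 1401 and 1434 at 10 µM. The changes at 10 µM were -1.98 ± 0.14 and -1.31 ± 0.14 (adjusted p = 2.12e-07 and 1.69e-05). PC3 started highest, at 5125 and 5106, and went to 2769 and 2484 and 1992 and 1967, while NCI-H660 went from 1874 and 1870.5 to 1365 and 1579 and 985 and 717. Their changes at 10 µM were -1.37 ± 0.14 and -1.16 ± 0.14 (adjusted p = 3.76e-05 and 8.74e-05). No treated array overlapped with vehicle in any line, and the call at 0.5 µM was missed only in NCI-H660 (-0.35 ± 0.14, adjusted p = 0.265). On VCaP-labelled arrays TRIB3 thus fell while DDIT3 rose.

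ASNS, asparagine synthetase, is a classical ATF4 target and holds the amino acid response core printed above. ASNS signal on LNCaP-labelled arrays was 3737 and 3839 with vehicle, 5679 and 5632 at 0.5 µM and 8706 and 8798 at 10 µM. PC3 gave 2338 and 2103 with vehicle, 3984 and 3624 at 0.5 µM and 6427 and 6547 at 10 µM. In both lines each step lay above the one before, with changes at 10 µM of 1.21 ± 0.10 and 1.55 ± 0.10 (adjusted p = 1.16e-06 and 9.08e-07). On VCaP-labelled arrays ASNS was 7725 and 7515 with vehicle, 7475 and 7558 at 0.5 µM and 9894 and 10045 at 10 µM, and in NCI-H660 7845 and 7187 with vehicle, 8418 and 9081 at 0.5 µM and 12662 and 11775 at 10 µM. Here the rise passed at 10 µM and not at 0.5 µM, by 0.39 ± 0.10 and 0.70 ± 0.10 (adjusted p = 0.0154 and 0.00041). With median centring the rise on VCaP-labelled arrays did not pass (0.26, adjusted p = 0.227), and averaging all ASNS probe sets ended every ASNS call except that in NCI-H660 at 10 µM (log2 changes of 0.36 to 1.04, adjusted p = 0.212 to 0.74 for those lost). The only other ASNS probe set had a geometric mean signal of 9.57, under the floor in every comparison.

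SESN2, a stress sensor that restrains mTORC1, rose most on LNCaP-labelled arrays. SESN2 signal there was 109 and 141 with vehicle, 231 and 316 at 0.5 µM and 579 and 508 at 10 µM, changes of 1.12 ± 0.21 and 2.13 ± 0.21 (adjusted p = 0.00274 and 5.06e-06). On VCaP-labelled arrays it was 425 and 421 with vehicle, 411 and 479 at 0.5 µM and 419 and 431 at 10 µM, with overlapping groups and a change of 0.01 ± 0.21 at 10 µM. PC3 gave 179 and 260.4 with vehicle, 318 and 251 at 0.5 µM and 387 and 339.9 at 10 µM, a rise of 0.75 ± 0.21 at 10 µM (adjusted p = 0.0335) that ranged from 0.48 to 1.02 and lost its call without the first replicate of either group. NCI-H660 gave 511 and 417 with vehicle, 503 and 482 at 0.5 µM and 558 and 589 at 10 µM, which did not pass. The difference in response between LNCaP- and VCaP-labelled arrays was 2.12 ± 0.29 (adjusted p = 0.000648).

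The serine synthesis genes PHGDH, PSAT1 and PSPH encode the 3 consecutive enzymes of one pathway. PSAT1 signal on LNCaP-labelled arrays was 4601 and 4132 with vehicle, 2523 and 2627 at 0.5 µM and 1980 and 2052 at 10 µM, changes of -0.76 ± 0.12 and -1.11 ± 0.12 (adjusted p = 0.000922 and 1.25e-05). On VCaP-labelled arrays PSAT1 was 10919 and 10229 with vehicle, 8241 and 8215 at 0.5 µM and 9261 and 9159 at 10 µM. The treated arrays again lay below vehicle, by -0.36 ± 0.12 at 0.5 µM (adjusted p = 0.09, lost without any of 18 arrays) and -0.20 ± 0.12 at 10 µM, which did not pass. In PC3 PSAT1 was 2725 and 2647 with vehicle, 2153 and 2544 at 0.5 µM and 2095 and 2510.5 at 10 µM, and in NCI-H660 4509 and 4941 with vehicle, 5314 and 4828 at 0.5 µM and 5145 and 5032 at 10 µM, with no pass. PHGDH fell by 0.49 ± 0.12 and 0.57 ± 0.12 on the log2 scale on LNCaP-labelled arrays, and by 0.43 ± 0.12 and 0.49 ± 0.12 on VCaP-labelled arrays. PSPH rose by 0.73 ± 0.14 at 10 µM on LNCaP-labelled arrays and fell by 0.58 ± 0.14 on the log2 scale in NCI-H660. Another PSPH probe set, with a geometric mean signal of 853, gave 0.11 (adjusted p = 0.74) and -0.50 (adjusted p = 0.08) in these comparisons, and passed on VCaP-labelled arrays, with -0.91 and -1.11 (adjusted p = 0.00479 and 0.000452).

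CHAC1 and CEBPB complete this group. CHAC1, which degrades glutathione and holds the same element as ASNS, fell by 0.81 ± 0.21 and 1.09 ± 0.21 on the log2 scale on VCaP-labelled arrays, and by 0.74 ± 0.21 at 10 µM in NCI-H660. The CHAC1 signal was low, at 543 and 683 with vehicle and 294 and 279 at 10 µM on VCaP-labelled arrays and at 93.7 and 159 with vehicle on LNCaP-labelled arrays. CEBPB, a transcription factor that pairs with ATF4, fell in 7 of the 8 comparisons, the exception being 0.5 µM in NCI-H660. Its changes at 10 µM were -0.28 ± 0.11 and -0.79 ± 0.11 on LNCaP- and VCaP-labelled arrays, -0.84 ± 0.11 in PC3 and -0.31 ± 0.11 in NCI-H660.

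**Figure D3:**
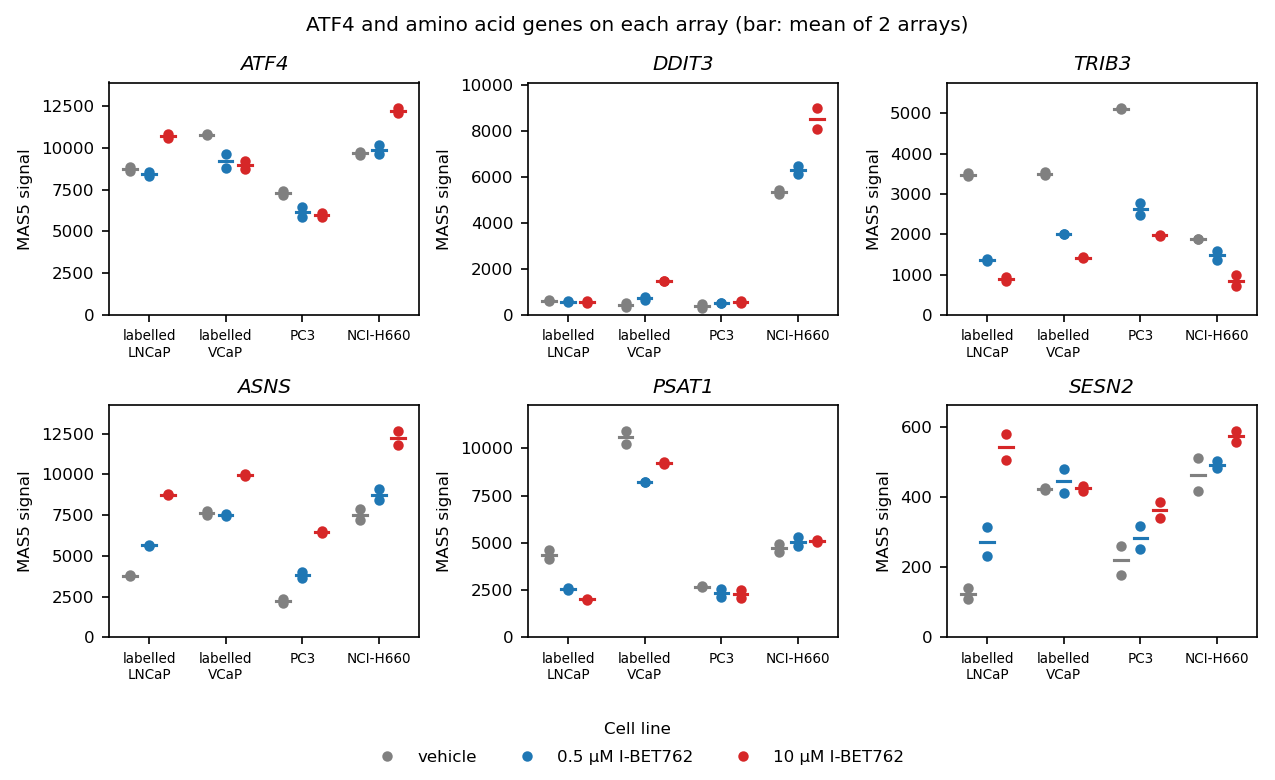
Each panel plots the MAS5 signal (linear axis from 0) of one ATF4-related gene on all 24 arrays by cell line, with dots for single arrays, bars for the mean of 2 arrays and colours for vehicle, 0.5 µM and 10 µM I-BET762. TRIB3 steps down and ASNS steps up with concentration, whereas DDIT3 is highest in NCI-H660 at every concentration and rises on VCaP-labelled arrays.

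Of the 12 measured cytosolic tRNA synthetase genes, 6 fell at 0.5 µM and 7 at 10 µM on LNCaP-labelled arrays, where 1 and 0 rose. On VCaP-labelled arrays 6 and 7 fell and 0 rose at either concentration. In PC3 3 fell at 0.5 µM and 4 at 10 µM, with 0 and 1 risen. NCI-H660 had 0 fallen at 0.5 µM and 3 at 10 µM, where median centring gave 1. The median log2 changes were -0.24 and -0.51 on LNCaP-labelled arrays, -0.31 and -0.39 on VCaP-labelled arrays, -0.16 and -0.16 in PC3 and -0.08 and -0.03 in NCI-H660, against medians over all genes of 0.01 to 0.05. With median centring the last of these medians became 0.15, and on LNCaP-labelled arrays 0 rose and 7 fell at 0.5 µM.

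VARS1, the valyl-tRNA synthetase gene, fell most of the synthetases on LNCaP- and VCaP-labelled arrays at 10 µM. VARS1 signal on LNCaP-labelled arrays was 1620.3 and 1622 with vehicle, 453 and 412 at 0.5 µM and 219 and 261 at 10 µM, changes of -1.91 ± 0.12 and -2.76 ± 0.12 (adjusted p = 1.13e-06 and 6.64e-09), the second being 6.78-fold. VARS1 on VCaP-labelled arrays was 1643 and 1504 with vehicle, 981 and 926 at 0.5 µM and 581 and 525 at 10 µM, changes of -0.72 ± 0.12 and -1.51 ± 0.12 (adjusted p = 0.00161 and 1.3e-06). PC3 gave 2351 and 2458 with vehicle, 1647 and 1579 at 0.5 µM and 1432 and 1272 at 10 µM. NCI-H660, low from the start, gave 430.0 and 405 with vehicle, 318 and 315 at 0.5 µM and 259 and 280.4 at 10 µM. No treated array overlapped with vehicle in any line, and VARS1 missed the test only at 0.5 µM in NCI-H660 (-0.40 ± 0.12, adjusted p = 0.113). The PC3 change at 0.5 µM, -0.58 ± 0.12, had an adjusted p of 0.101 without the second vehicle replicate. A dimmer second VARS1 probe set, with a geometric mean signal of 103, close to the floor, gave larger changes of -3.99 and -4.38 on LNCaP-labelled arrays. On VCaP-labelled arrays it gave -0.79 at 0.5 µM, which did not pass, and -3.09 at 10 µM, which did (adjusted p = 0.144 and 9.54e-06). In PC3 it passed at neither concentration, with -0.67 and -0.73 (adjusted p = 0.3 and 0.161), and in NCI-H660 it was under the floor. The fall at 10 µM was larger in the pooled LNCaP- and VCaP-labelled lines than in PC3 and NCI-H660, with a difference of -1.40 ± 0.12 on the log2 scale (adjusted p = 6.25e-06).

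YARS1, for tyrosine, and IARS1, for isoleucine, fell under both labels at both concentrations, as read from the chosen probe sets. YARS1 signal on LNCaP-labelled arrays was 4315 and 4136 with vehicle, 2106 and 2169 at 0.5 µM and 1596 and 1612 at 10 µM, and on VCaP-labelled arrays 6381 and 6207 with vehicle, 4473 and 4465 at 0.5 µM and 3655 and 3582 at 10 µM. At 10 µM these are changes of -1.40 ± 0.10 and -0.80 ± 0.10 (adjusted p = 3.94e-07 and 0.000101). In PC3 YARS1 was 3515 and 3593 with vehicle, 2964 and 2910.4 at 0.5 µM and 2444 and 2927 at 10 µM, and in NCI-H660 6834 and 6359.7 with vehicle, 6399 and 6883 at 0.5 µM and 6566 and 6584 at 10 µM. The PC3 change of -0.41 ± 0.10 passed at 10 µM (adjusted p = 0.0198; up to 0.161 without the second vehicle or the first treated replicate), and the NCI-H660 groups overlapped. The other YARS1 probe set, with a geometric mean signal of 180, did not pass on VCaP-labelled arrays, with 0.07 and -0.17 (adjusted p = 0.92 and 0.663). It passed below vehicle on LNCaP-labelled arrays at both concentrations and in PC3 at 10 µM. Averaging all YARS1 probe sets ended the call at 0.5 µM on VCaP-labelled arrays (-0.21, adjusted p = 0.328).

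IARS1 signal on LNCaP-labelled arrays was 5469 and 5839 with vehicle, 3495 and 3416 at 0.5 µM and 2258 and 2259 at 10 µM, and on VCaP-labelled arrays 11581 and 10925 with vehicle, 8126 and 7579 at 0.5 µM and 6475 and 5949.8 at 10 µM. Its changes at 10 µM were -1.32 ± 0.11 and -0.86 ± 0.11 (adjusted p = 8.86e-07 and 7.6e-05). In PC3 IARS1 was 9014 and 9304 with vehicle, 7758 and 7188 at 0.5 µM and 7353 and 7942 at 10 µM, below vehicle on every treated array without passing (-0.26 ± 0.11 at 10 µM). In NCI-H660 it was 10721 and 10699 with vehicle, 8454 and 9847 at 0.5 µM and 8665 and 8315 at 10 µM, and the change of -0.34 ± 0.11 at 10 µM (adjusted p = 0.0554) was lost without any 1 of the 4 arrays compared and with median centring (-0.16, adjusted p = 0.605).

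LARS1, the leucyl-tRNA synthetase gene, and VARS1 were the synthetase genes with the largest falls in PC3. LARS1 signal in PC3 was 5346 and 5451 with vehicle, 3084 and 3185 at 0.5 µM and 2869 and 3045 at 10 µM, changes of -0.78 ± 0.10 and -0.87 ± 0.10 (adjusted p = 0.000783 and 8.86e-05). On VCaP-labelled arrays it was 4543 and 4741 with vehicle, 3072 and 3423 at 0.5 µM and 2605 and 2613 at 10 µM, and on LNCaP-labelled arrays 1471 and 1499 with vehicle, 1404 and 1249.5 at 0.5 µM and 936 and 930.4 at 10 µM. LARS1 fell under both labels at 10 µM, by 0.83 ± 0.10 and 0.67 ± 0.10 on the log2 scale, and LNCaP-labelled arrays did not pass at 0.5 µM. NCI-H660 gave 2713 and 2679 with vehicle, 2612 and 2579 at 0.5 µM and 2506 and 2424 at 10 µM, with a change of -0.13 ± 0.10 at 10 µM that did not pass. The responses of PC3 and NCI-H660 differed by -0.74 ± 0.14 (adjusted p = 0.0102), as read from the chosen probe set. Another LARS1 probe set, with a geometric mean signal of 2090, did pass in NCI-H660 at 10 µM, with -0.48 (adjusted p = 0.0727). It also passed at 0.5 µM on LNCaP-labelled arrays, with -0.45 (adjusted p = 0.0967). The remaining LARS1 probe sets passed in neither of these comparisons.

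The remaining synthetases changed less. TARS1, for threonine, fell by 0.55 ± 0.10, 0.36 ± 0.10 and 0.51 ± 0.10 on the log2 scale at 10 µM on LNCaP-labelled arrays, VCaP-labelled arrays and in PC3. GARS1, for glycine, fell by 0.48 ± 0.13 and 0.42 ± 0.13 on the log2 scale at 10 µM on LNCaP- and VCaP-labelled arrays, and NARS1, for asparagine, by 0.53 ± 0.09 on LNCaP-labelled arrays. CARS1, for cysteine, fell by 0.52 ± 0.11 on the log2 scale at 10 µM on VCaP-labelled arrays. Rises were few: WARS1, for tryptophan, by 0.50 ± 0.14 at 0.5 µM on LNCaP-labelled arrays and SARS1, for serine, by 0.36 ± 0.10 at 10 µM in PC3, and WARS1 fell by 0.41 ± 0.14 on the log2 scale at 10 µM in NCI-H660. Another SARS1 probe set, with a geometric mean signal of 349, gave -0.10 (adjusted p = 0.848) at 10 µM in PC3. That probe set passed below vehicle on VCaP-labelled arrays, with -0.82 and -0.71 (adjusted p = 0.0225 and 0.0259). It also did at 10 µM on LNCaP-labelled arrays and in NCI-H660, with -0.50 and -0.67 (adjusted p = 0.0985 and 0.0432). AARS1, for alanine, and EPRS1, for glutamate and proline, passed nowhere, with changes between -0.22 and 0.07. Among the genes that hold the amino acid response core, GARS1 and IARS1 thus fell where ASNS rose, and AARS1 did neither.

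**Figure D4:**
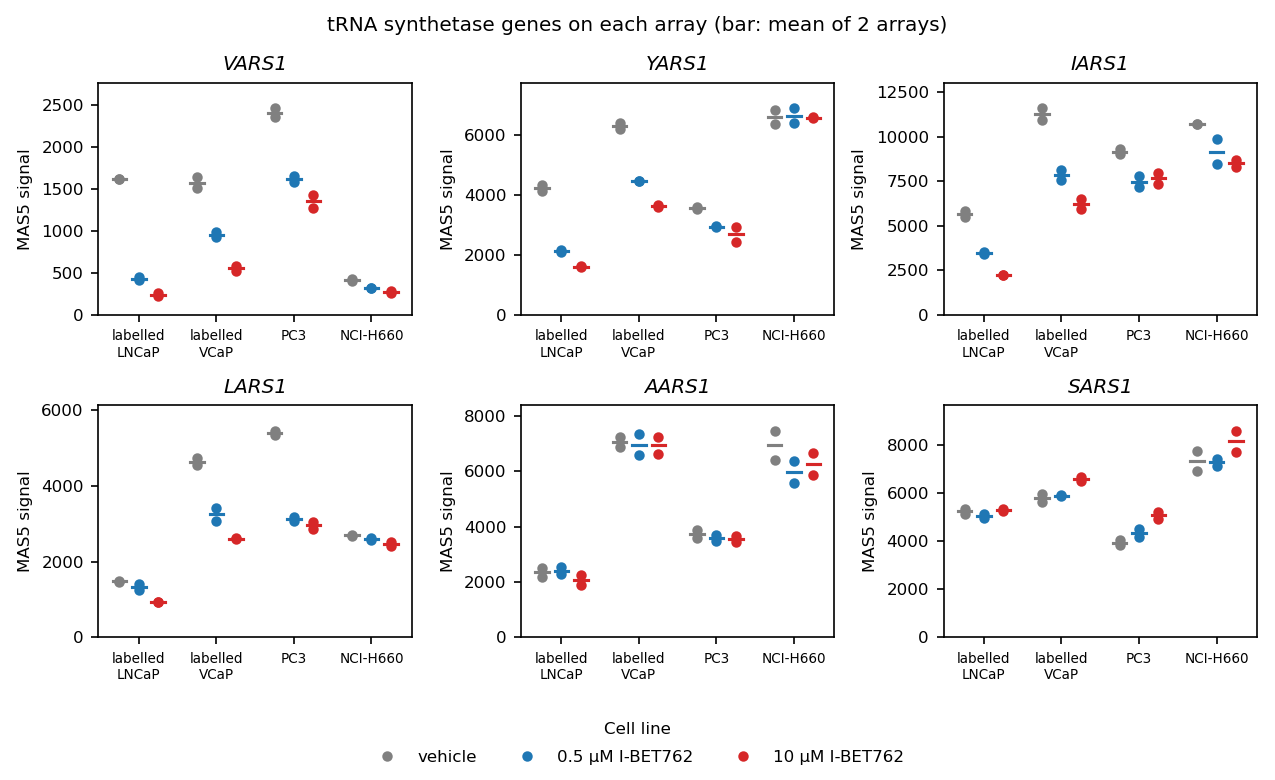
Each panel plots the MAS5 signal (linear axis from 0) of one cytosolic tRNA synthetase gene on all 24 arrays by cell line, with dots for single arrays, bars for the mean of 2 arrays and colours for vehicle, 0.5 µM and 10 µM I-BET762. VARS1, YARS1 and IARS1 step down with concentration on LNCaP- and VCaP-labelled arrays, while AARS1 passed in none of the 8 comparisons.

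The higher concentration moved some of these genes further. Between 10 and 0.5 µM, 4 genes rose and 8 fell on LNCaP-labelled arrays, against 9.71% and 10.3% of all genes, and 2 rose and 7 fell on VCaP-labelled arrays, against 4.29% and 5.63%. PC3 had 1 risen and 0 fallen (1.01% and 1.22% of all genes), and NCI-H660 had 1 risen and 1 fallen (3.3% and 4.32%). ASNS rose further in all 4 lines, by 0.63 ± 0.10 and 0.41 ± 0.10 on LNCaP- and VCaP-labelled arrays, 0.77 ± 0.10 in PC3 and 0.48 ± 0.10 in NCI-H660. CREB3L4 fell further under both labels, by 1.24 ± 0.11 and 1.80 ± 0.11 on the log2 scale, and so did VARS1, by 0.85 ± 0.12 and 0.79 ± 0.12, and SDF2L1, by 0.46 ± 0.11 and 0.68 ± 0.11. HSPA5 did not pass between the concentrations in any line, at 0.02 ± 0.10 on LNCaP-labelled arrays. Median centring gave 1 risen and 4 fallen on VCaP-labelled arrays, and leaving out any 1 of its 0.5 or 10 µM arrays gave 3 or 4 genes there. Without the first 10 µM replicate 7 genes passed on LNCaP-labelled arrays. Quantile normalization gave 1 risen and 1 fallen in PC3, and without the first 0.5 or 10 µM replicate of NCI-H660 1 gene passed in that line.

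The lines differed in these genes before treatment. Between LNCaP-labelled and VCaP-labelled vehicle arrays, 4 genes were higher and 24 lower on the former, against 27.8% and 33.4% of all genes. The 24 included 10 of the 12 synthetases, whose median difference was -0.73, and 7 of the 10 ATF4 genes. PSAT1 differed by -1.28 ± 0.12, PHGDH by -1.58 ± 0.12 and LARS1 by -1.64 ± 0.10 log2 units, while HSPA5 did not pass between any 2 lines. DDIT3 was highest in NCI-H660, at a mean of 5336 against 621, 424 and 375 on LNCaP-labelled and VCaP-labelled arrays and in PC3, and the difference of the last 2 did not pass (adjusted p = 0.607). CREB3L4 means were 4137 and 3649.7 on VCaP- and LNCaP-labelled arrays, a difference that did not pass (adjusted p = 0.264) although these arrays did not overlap, and then 1232 in NCI-H660 and 429.7 in PC3. VARS1 was lowest in NCI-H660, at 418, by 2.53 ± 0.12 log2 units under PC3. CEBPB was highest in PC3 and NCI-H660, at 13863 and 11978, a difference that did not pass (adjusted p = 0.159), against 4864 and 2060.1 on VCaP- and LNCaP-labelled arrays.

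The other comparisons of vehicle arrays gave mixed directions. Of the 39 genes, 12 were higher and 15 lower on LNCaP-labelled arrays than in PC3 (31.5% and 33.3% of all genes), and 10 higher and 22 lower than in NCI-H660 (35.3% and 36.3%). On VCaP-labelled arrays 23 were higher and 8 lower than in PC3 (34.6% and 30.3%), and 19 higher and 10 lower than in NCI-H660 (38% and 32.7%). PC3 had 12 higher and 19 lower than NCI-H660 (36.2% and 34.4%). Median centring turned the split against NCI-H660 to 15 and 16 for LNCaP-labelled arrays, to 27 and 5 for VCaP-labelled arrays and to 15 and 16 for PC3, so the direction turned or evened out for LNCaP-labelled arrays and PC3. VCaP-labelled arrays had more genes higher than NCI-H660 with this and with quantile normalization (16 and 12). The same centring gave 15 and 14 for LNCaP-labelled arrays against PC3.

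Whether the response itself differed between lines was tested at 10 µM as a difference of changes. Between the pooled LNCaP- and VCaP-labelled lines and the pooled PC3 and NCI-H660, the change was higher in the former for 7 genes and lower for 12, against 17.1% and 19.8% of all genes. The 12 included 6 of the 12 synthetases. The split was 1 and 17 with median centring and 8 and 7 with quantile normalization, and 12 genes passed without the first 10 µM replicate of NCI-H660. Between LNCaP- and VCaP-labelled arrays, 13 genes changed more upward in the former and 9 more downward (13.1% and 10.3% of all genes; 10 and 3 with median centring, and 14 genes in all without the first 10 µM replicate labelled LNCaP), among them 1.30 ± 0.15 for PDIA4 and 1.48 ± 0.17 for CREB3L2. Between PC3 and NCI-H660 4 genes were higher and 4 lower (7.11% and 5.61% of all genes; 1 and 4 with median centring and 5 and 3 with quantile normalization). Here 4 or 5 genes passed without either vehicle or the first 10 µM replicate of NCI-H660, or without the first PC3 vehicle replicate.

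Further genes of the same pathways, which are not among the 40, were counted from lists written beside them. Of 24 other unfolded protein genes measured above the floor, 6 rose and 3 fell at 10 µM on LNCaP-labelled arrays, 4 and 4 on VCaP-labelled arrays, 3 and 1 in PC3, and 6 and 3 in NCI-H660. Against the shares of all genes at 10 µM (27.5% and 26.2%, 20.2% and 21.5%, 16.8% and 14.1%, and 18% and 16.7%, in that order), each of these was lower except the risen share in NCI-H660. Median centring turned the split on LNCaP-labelled arrays to 3 and 4, and gave 2 and 4 on VCaP-labelled arrays, 3 and 0 in PC3 and 6 and 0 in NCI-H660, and quantile normalization gave 3 and 3 in PC3. EDEM3, a relative of EDEM1, rose by 1.08 ± 0.24 on LNCaP-labelled arrays, MANF, a secreted ER stress protein, by 0.70 ± 0.10 in NCI-H660, and WFS1, an ER membrane protein, by 0.67 ± 0.12 on VCaP-labelled arrays. Of 24 other ATF4-related genes, 6 rose and 13 fell on LNCaP-labelled arrays at 10 µM, 5 and 13 on VCaP-labelled arrays, 4 and 9 in PC3, and 1 and 5 in NCI-H660. The fallen share was above that of all genes in each line, while the risen share was near it in the first 3 and under it in NCI-H660. Median centring turned the split to 4 and 3 in PC3 and 5 and 4 in NCI-H660, and gave 1 and 14 on VCaP-labelled arrays. Their median log2 changes were -0.58, -0.54, -0.25 and -0.02 in that order. ATF3, a stress-induced partner of ATF4, rose by 3.73 ± 0.14 on LNCaP-labelled arrays, from a mean of 225 to 2957. NUPR1, a stress-induced chromatin protein, fell there by 3.14 ± 0.25 on the log2 scale and CBS, of the cysteine synthesis pathway, by 2.06 ± 0.10.

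Synthetases outside the list were fewer. Of 6 other cytosolic synthetase genes and cofactors, 1 rose and 5 fell at 10 µM on LNCaP-labelled arrays, 0 and 4 on VCaP-labelled arrays, 0 and 1 in PC3, and 3 and 0 in NCI-H660. The fallen share was above that of all genes on LNCaP- and VCaP-labelled arrays, as was the risen share in NCI-H660, and the 1 gene in PC3 did not pass with median centring. FARSA, a subunit of the phenylalanyl-tRNA synthetase, fell by 1.14 ± 0.13 and 1.18 ± 0.13 on the log2 scale on LNCaP- and VCaP-labelled arrays. FARSB, its other subunit, fell by 0.88 ± 0.10 on the log2 scale on LNCaP-labelled arrays and rose by 0.76 ± 0.10 in NCI-H660, where RARS1, for arginine, rose by 0.73 ± 0.18. Of 15 mitochondrial synthetase genes, 1 rose and 6 fell on LNCaP-labelled arrays at 10 µM, 1 and 2 on VCaP-labelled arrays, 1 and 2 in PC3, and 8 and 4 in NCI-H660. Both shares in NCI-H660 and the fallen share on LNCaP-labelled arrays were above those of all genes, and the others were lower. Median centring gave 0 and 4 on VCaP-labelled arrays and 8 and 1 in NCI-H660. MARS2, the mitochondrial methionyl-tRNA synthetase gene, rose by 1.75 ± 0.14 in NCI-H660, from a mean of 209.8 to 700.0. FARS2, for phenylalanine, and CARS2, for cysteine, fell by 1.27 ± 0.16 and 1.06 ± 0.14 on the log2 scale on LNCaP-labelled arrays.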

How the data were processed

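RNA of the 24 cultures was profiled on Affymetrix U133 Plus 2.0 arrays, and linear MAS5 signal intensities per probe set, scaled to a target of 500, were deposited as a value table. The number of arrays limits the precision.

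From these values 62 control probe sets were left out, log2 of the deposited signal was taken, and limma 3.58.1 (R 4.3.3) was fitted to 54613 probe sets with 1 mean for each of 12 groups, adjusting each contrast by Benjamini-Hochberg. All groups share 1 estimate of the spread (12 residual degrees of freedom). The platform table gave 41091 probe sets 1 gene symbol, 1801 several and 11721 none, and each gene was read from its brightest probe set with 1 symbol, passing over sets of the _x_at type, which can match several genes, unless the gene had no other. The fit was tested on simulated data.

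Members, lists and tests were chosen with earlier results of these data known. Values on every array are given for ATF4, DDIT3, HSPA5, XBP1 and, in each group, up to 4 further members with the largest change; HSP90B1 was added after its values were seen, and other members are named with their changes. Alternatives were another normalization (quantile) or centring (each array's median), a replicate block, an intensity trend, separate fits of each line, an offset of 50, other probe set rules, other floors (none or 200), and leaving out each array. The study's growth, protein, PCR and animal data were not analysed here.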

Additional observations from a re-analysis of the deposited data

Results flagged for a closer look

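These results were singled out because the change at 10 µM differed between lines, by a limma test of the difference itself. Values are differences of log2 changes ± SE with the adjusted p in brackets.

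Between LNCaP- and VCaP-labelled arrays, the change of the ER genes was more upward in the former by 0.66 ± 0.14 (0.0119) for HSPA5, 1.03 ± 0.15 (0.000902) for HSP90B1, 1.30 ± 0.15 (0.000175) for PDIA4, 0.70 ± 0.15 (0.0123) for SDF2L1, 0.59 ± 0.16 (0.0402) for SEL1L and 1.48 ± 0.17 (0.000185) for CREB3L2. CREB3L4 fell further there, with a difference of -0.50 ± 0.15 (0.0712). Of all 17 unfolded protein genes, 7 changed more upward on LNCaP-labelled arrays and 2 more downward, against 13.1% and 10.3% of all genes. Among ATF4 genes the difference was 0.56 ± 0.14 (0.0226) for ATF4, 0.82 ± 0.14 (0.00296) for ASNS, 2.12 ± 0.29 (0.000648) for SESN2 and 1.39 ± 0.29 (0.0104) for CHAC1. It was the other way at -2.02 ± 0.32 (0.00179) for DDIT3, -0.68 ± 0.19 (0.0494) for TRIB3 and -0.91 ± 0.17 (0.0049) for PSAT1. Of the 12 synthetases, 4 changed more downward on LNCaP-labelled arrays and 1 more upward, against 10.3% and 13.1% of all genes. With median centring the split was 1 and 0. Among the 4 the differences were -1.25 ± 0.17 (0.000474) for VARS1, -0.60 ± 0.14 (0.0225) for YARS1 and -0.47 ± 0.15 (0.0827) for IARS1.

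Between both of these lines and the pooled PC3 and NCI-H660, SEL1L changed more upward, by 0.75 ± 0.11 (0.000616). Of the 17 unfolded protein genes, 6 had a higher change in the former and 2 a lower one, against 17.1% and 19.8% of all genes. With median centring the split was 1 and 4. The 2 lower ones with the deposited scaling were SDF2L1, at -0.74 ± 0.11 (0.000466), and CREB3L4, at -2.30 ± 0.11 (7.45e-08). Among ATF4 genes the differences were -0.38 ± 0.14 (0.0841) for TRIB3, -0.33 ± 0.10 (0.0444) for ASNS and -0.60 ± 0.12 (0.00455) for PSAT1, and among synthetases -1.40 ± 0.12 (6.25e-06) for VARS1, -0.89 ± 0.10 (8.07e-05) for YARS1 and -0.79 ± 0.11 (0.000259) for IARS1.

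Between PC3 and NCI-H660, SDF2L1 differed by -1.14 ± 0.15 (0.00163) and ATF4 by -0.63 ± 0.14 (0.0228), each falling in PC3 and rising in NCI-H660. CHAC1 and ASNS changed more upward in PC3, by 1.09 ± 0.29 (0.0634) for CHAC1 and 0.85 ± 0.14 (0.0056) for ASNS, and LARS1 fell further in PC3, with a difference of -0.74 ± 0.14 (0.0102). The cause of these differences was not tested.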

How the results depend on the processing

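Of 128 named log2 changes from vehicle, 119 kept their direction and side of the threshold with quantile normalization, 115 with median centring, 111 with an intensity trend, 93 with each line fitted alone, 120 with the replicate block, 122 with 50 added to the signal, 108 with the mean of all probe sets, and all 128 without a floor or with a floor of 200. Allowing _x_at probe sets left the chosen probe set of each of these genes unchanged, so it could not move any of the 128. The mean of all probe sets reversed XBP1 at 10 µM in PC3 to 0.09, with a second probe set under the floor. Of 24 median changes of the 3 gene groups, 18 moved by more than the spread between replicates with median centring, 13 with the mean of all probe sets, 9 with quantile normalization, 1 with _x_at probe sets allowed and 0 with the other settings, as did 30 of 576 with single arrays left out. In counts of members that passed, quantile normalization gave 2 in NCI-H660 at 0.5 µM (1 in the report's fit) and 2 in PC3 between concentrations (1). Median centring gave 5 on VCaP-labelled arrays between concentrations (9), 13 for the LNCaP against VCaP response (22) and 5 for PC3 against NCI-H660 (8). The intensity trend gave at 0.5 µM 16 for PC3 and 5 for NCI-H660, 20, 5 and 8 between concentrations on LNCaP-labelled arrays, for PC3 and NCI-H660, and 15 for the PC3 against NCI-H660 response. Each line fitted alone has few degrees of freedom and gave 12 and 2 on LNCaP- and VCaP-labelled arrays at 0.5 µM, 14, 2 and 7 on VCaP-labelled arrays, for PC3 and for NCI-H660 at 10 µM, 0 by limma at the lower concentration for both PC3 and NCI-H660 (without adjustment 6 and 2 at a p under 0.05), and 0 between concentrations in all 4 lines (15, 10, 1 and 4 unadjusted). Replicate numbers do not pair samples, since deviations of same-numbered arrays correlated at -0.036 to 0.057; the replicate block gave 4 in PC3 at 0.5 µM, 4 on VCaP-labelled arrays between concentrations and 4 for the PC3 against NCI-H660 response. Adding 50 gave 2 in NCI-H660 at 0.5 µM, 2 in PC3 between concentrations and 13 for the PC3 against NCI-H660 response, and the mean of all probe sets 2 in NCI-H660 at 0.5 µM. Leaving out each array gave 19 to 25 and 24 to 28 on LNCaP-labelled arrays at 0.5 and 10 µM, 9 to 18 and 18 to 23 on VCaP-labelled arrays, 4 to 8 and 11 to 17 for PC3, and 1 to 1 and 6 to 15 for NCI-H660. Between concentrations it gave 7 to 14, 3 to 9, 1 to 2 and 1 to 3 in that order of lines, and for the responses 12 to 21 (pooled), 14 to 23 (LNCaP against VCaP) and 4 to 8 (PC3 against NCI-H660). Of 76 named changes that passed, 57 passed whichever array was left out.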
